A study of Rattus norvegicus with 8 samples.

Results

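Of the 21549 genes counted in rat heart, 60 were clearly reduced in every hypoxic animal. They were chosen by their measured values: a gene entered when its mean over the 8 libraries was at least 1 CPM (count times 1000000 over the library total) and its highest CPM in chronic hypoxia was at most 0.5 times its lowest CPM in normoxia. Of the 12671 genes that reached a mean of 1 CPM, the 60 were 0.474%. Complete separation without a minimum gap, with all hypoxia values below all normoxia values, held for 3742 of the 12671 genes (29.5%) on library totals. Other scalings of the libraries, given below, lowered that share. The hypoxia-against-normoxia values chose the 60 genes and are therefore given as a description, without a test. The mirror rule, with every hypoxic heart at least 2 times above every normoxic one, held for 43 genes, also on library totals.

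The libraries came from heart tissue of Sprague Dawley rats, an outbred laboratory strain, aged 3 months. Normoxia (the controls) and chronic hypoxia, a prolonged exposure to low oxygen, had 4 rats each, and each library was taken as 1 animal. The labels name no allele and no other agent in either group. The sources used here do not give the oxygen level, the duration, the sex or the chamber sampled. The sample was whole tissue, so fewer cells of a type and less RNA per cell cannot be told apart.

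As background, low oxygen stabilizes the hypoxia-inducible factors, transcription factors that raise genes for glycolysis, oxygen delivery and vessel growth. Sustained hypoxia also narrows the arteries of the lung and loads the right ventricle. The adult heart burns mainly fatty acids, and reduced transcripts in a hypoxic heart are commonly looked for among the genes of fatty acid oxidation, ion channels and contraction. Whether any of the 60 belong to those groups could not be read here. The deposited tables give Ensembl gene IDs only, and 0 of the 21549 IDs matched the RefSeq gene table used here (assembly GRCr8). For that reason no symbol, genome position, promoter or protein is given, and neither the tissue markers nor the pathway lists could be examined. The 2 members with the largest reductions are printed by ID, and the others are described by their gene-model length (the length, in base pairs, that the deposited FPKM values imply) and their levels.

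Library totals ran from 28199908 to 31287841 counts in normoxia and from 26229304 to 32160710 in hypoxia. Hypoxic hearts varied more among themselves over all tested genes, with a biological coefficient of variation (edgeR) of 22.9% against 9.54% in normoxia. For a gene without any count the upper limit is 3 counts, 0.0933 to 0.114 CPM across the libraries, which covers counting error only.

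Together the members made up a small part of the cardiac RNA in normoxia and a smaller one in hypoxia. Their summed level was 2074, 2050, 2180 and 2158 CPM in normoxia libraries 1 to 4, and 696, 738, 693 and 517 CPM in hypoxia libraries 1 to 4. All 4 hypoxic hearts lay far below all 4 normoxic ones, as the rule requires, and hypoxia library 4 was the lowest. The group means were 2115 ± 63.1 and 661 ± 98.2 CPM (SD, n = 4 each), a ratio of 0.312. The most abundant member alone supplied 19.96% of the normoxia sum and 22.3% of the hypoxia sum, and without it the ratio was 0.303. As each member was chosen for its fall, the rule fixes a low ratio of the sum with or without any 1 gene.

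**Figure D1:**
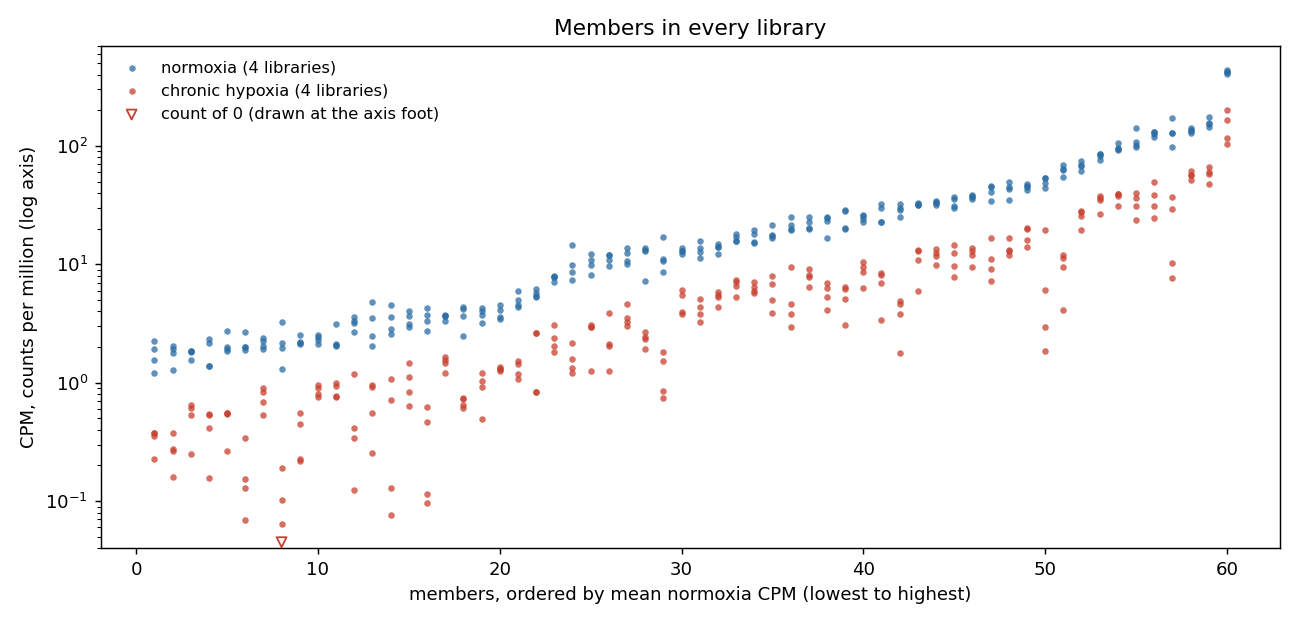
CPM (log axis) of each of the 60 members in each of the 8 libraries, ordered by mean normoxia CPM; blue points are the 4 normoxia libraries and red points the 4 hypoxia libraries, and the open triangle is the 1 count of 0. In every column the red points lie below the blue ones, and the gap is found from members near 2 CPM to the one at 422 CPM.

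The members spanned the range from scarce to abundant transcripts. Mean normoxia levels ran from 1.73 to 422 CPM, with a median of 13.2 CPM against 16.6 CPM over the 12671 genes. In normoxia 6 members were at 100 CPM or more, 31 between 10 and 100 CPM, and 23 under 10 CPM. In hypoxia the median was 3.96 CPM, and 17 members had a mean under 1 CPM. Scaled for length, the normoxia median was 5.60 FPKM (CPM per 1000 bp of gene model), against 6.82 FPKM over the 12671 genes. On that scale 8 members reached 30 FPKM and 11 stayed under 1 FPKM. Of 60 members, 28 lay above the median normoxia CPM of all 12671 genes. The spread was not even: of 10 equal groups of the 12671 genes by normoxia CPM, the second lowest held 13 members and the others 2 to 7. By normoxia FPKM the lowest of 10 groups held the most members, 11.

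The reductions were mostly between 2.4-fold and 5-fold. As a ratio of group means, the median member was 3.44-fold lower in hypoxia (quartiles 2.82 and 5.06), the smallest reduction was 2.38-fold and the largest 24.3-fold. By size, 19 members were under 3-fold, 16 were between 3-fold and 4-fold, 21 between 4-fold and 8-fold, and 4 at 8-fold or more. The ratio the rule bounds, highest hypoxia CPM over lowest normoxia CPM, had a median of 0.425 and was 0.25 or less in 6 members. Above 0.45, close to the bound, were 25 of the 60.

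The largest reduction belonged to ENSRNOG00000037364, a short gene model of 255 bp. It stood at 1.31, 1.95, 3.27 and 2.15 CPM in normoxia libraries 1 to 4, and at 0.103, 0, 0.191 and 0.0642 CPM in hypoxia libraries 1 to 4. All 4 hypoxic values were far below the normoxic ones, but they rest on 3, 0, 5 and 2 counts against 41, 55, 94 and 64 in normoxia, and the count of 0 allows up to 0.0933 CPM. The means of 2.17 ± 0.818 and 0.0895 ± 0.0797 CPM (SD, n = 4 each) gave a 24.3-fold reduction, and the edgeR log2 fold change was −4.44 (SE 0.55). Leaving out hypoxia library 3, which holds 5 of those counts, moved the log2 fold change to −5.02, and leaving out hypoxia library 2, which holds the 0, moved it to −4.03. Without normoxia library 3, its highest library, it was −4.18. Scaled by its short gene model, it stood at 8.52 ± 3.21 FPKM in normoxia and fell to 0.351 ± 0.313 FPKM. By normoxia CPM it was scarce, at rank 53 of the 60 members.

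ENSRNOG00000046601 came next, with a gene model of 5563 bp. Its normoxia values were 1.89, 2.70, 1.99 and 2.02 CPM, and its hypoxia values 0.0688, 0.342, 0.153 and 0.128 CPM, from 2, 11, 4 and 4 counts. The normoxic hearts were close together, and hypoxia library 2 was the highest of the hypoxic ones. Means were 2.15 ± 0.370 and 0.173 ± 0.118 CPM (SD, n = 4 each), 12.4-fold lower, with a log2 fold change of −3.39 (SE 0.39). Without hypoxia library 2 the log2 fold change was −4.02, without hypoxia library 1 it was −3.13, and without normoxia library 2 it was −3.28. Per length it was a scarce transcript even in normoxia, at 0.386 ± 0.0666 FPKM.

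The other 2 members reduced 8-fold or more differed from each other in level and in size. One, among the longest at 12429 bp, stood at 2.75, 4.26, 3.34 and 3.73 CPM in normoxia and at 0.619, 0.466, 0.114 and 0.0963 CPM in hypoxia. It was 10.9-fold lower, and hypoxia libraries 1 and 2 kept about 5 times the level of libraries 3 and 4 (ratio of the pairs' means, 5.15). The other, of 2417 bp, was more abundant, at 17.0, 8.55, 11.1 and 10.7 CPM in normoxia against 0.860, 1.83, 1.53 and 0.738 CPM in hypoxia, 9.56-fold lower. Its hypoxia values rest on 23 to 59 counts, so counting error weighs on it less than on the first 3.

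Large reductions were also present among abundant members. A gene of 2012 bp had the second highest level per length, at 65.4 ± 15.2 FPKM in normoxia and 10.5 ± 7.19 FPKM in hypoxia (SD, n = 4 each). Its libraries stood at 97.7, 128, 172 and 129 CPM in normoxia and at 37.2, 29.4, 10.2 and 7.61 CPM in hypoxia, 6.24-fold lower. The hypoxic hearts fell into a higher pair, libraries 1 and 2, and a lower pair, libraries 3 and 4. A gene of 1602 bp went from 68.8, 55.2, 62.6 and 63.8 CPM to 9.56, 11.3, 11.97 and 4.08 CPM, 6.77-fold lower. A gene of 657 bp went from 32.7, 25.4, 29.9 and 28.8 CPM to 3.82, 4.66, 4.88 and 1.798 CPM, 7.70-fold lower. These last 2 ran alike across the hypoxic hearts: both were highest in library 3 and lowest in library 4.

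The most abundant member, both by CPM and per length, had a gene model of 3211 bp. It stood at 442, 403, 422 and 423 CPM in normoxia and at 105, 200, 167 and 117 CPM in hypoxia. The normoxic hearts agreed closely, and hypoxia library 2 brought the gene close to the bound, with a ratio of 0.497. Its means were 422 ± 15.8 and 147 ± 44.4 CPM (SD, n = 4 each), 2.87-fold lower, or 132 ± 4.91 against 45.9 ± 13.8 FPKM. The next in abundance by CPM, of 4479 bp, stood at 145, 155, 158 and 176 CPM in normoxia and 65.8, 60.2, 58.2 and 47.6 CPM in hypoxia, 2.73-fold lower. The smallest reduction of the list was in the third most abundant, of 4150 bp, at 128, 134, 138 and 143 CPM against 57.2, 61.1, 57.2 and 51.6 CPM, 2.38-fold lower. In both of the latter the hypoxic hearts were close together, so a modest fold met the rule.

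Fold and level were loosely tied within the list. The 21 members under 5 CPM in normoxia had a median reduction of 4.43-fold, and 13 of them reached 4-fold. Among the 21 between 5 and 30 CPM the median was 3.29-fold and 9 reached 4-fold. Among the 18 at 30 CPM or more the median was 3.01-fold and 3 reached 4-fold. Spearman's rho between normoxia CPM and fold was −0.379 over the 60 genes, which share the same 8 libraries and whose fold contains the same normoxia mean. Because the rule bounds the extreme libraries, a gene that varies more must have a larger fold to enter, and the rho of fold with the SD of log2(CPM + 0.1) among hypoxic hearts was 0.711.

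**Figure D2:**
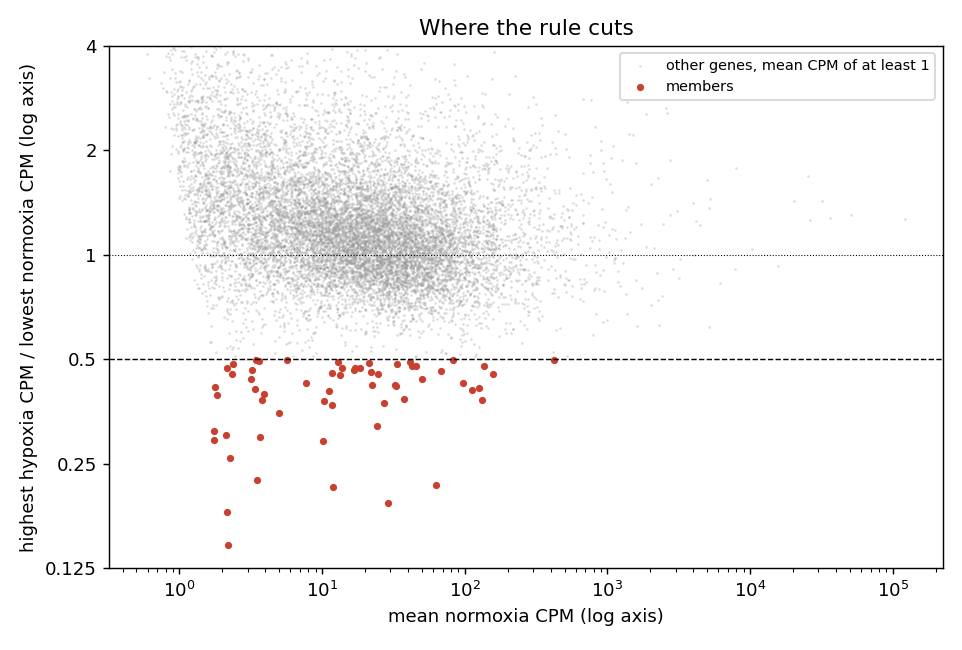
Highest hypoxia CPM over lowest normoxia CPM (log axis) against mean normoxia CPM (log axis) for the genes at or above a mean of 1 CPM; red points are the 60 members, grey points the other genes, the dashed line is the bound of 0.5 and the dotted line is 1, and 324 genes with a ratio above 4 are not drawn. The members are the lower edge of a continuous cloud, with no empty band at the bound.

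No break in the values separated the members from the rest. The 2 members nearest the bound had ratios of 0.497 and 0.498, and the 2 genes just outside had 0.502 and 0.506. Just inside were a gene of 1008 bp, with 2.97 to 4.04 CPM in normoxia and 0.642 to 1.48 CPM in hypoxia, and a gene of 6078 bp, with 76.4 to 85.5 CPM against 26.6 to 38.0 CPM. Just outside were a gene of 855 bp, with 2.62 to 3.62 CPM against 0.413 to 1.32 CPM, and a gene of 6818 bp, with 39.6 to 49.9 CPM against 10.3 to 20.1 CPM. Both genes outside had larger reductions of the mean, 4.04-fold and 3.22-fold, than the second of those inside, at 2.42-fold. Between ratios of 0.45 and 0.5 there were 25 genes, and between 0.5 and 0.55 there were 35. In all, 412 genes had a mean in hypoxia at or below 0.5 times that in normoxia. The 352 of these that are not members include 310 in which the groups did not overlap but the gap was narrower, and 42 in which they overlapped.

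Every member was also lower in the model fitted across all genes, which used the same contrast as the rule and so adds no support. At an adjusted p under 0.05 (edgeR quasi-likelihood test with Benjamini-Hochberg adjustment), all 60 were called lower, where 15.3% of the 14214 genes tested were called lower. Log2 fold changes ran from −4.44 to −1.08 with a median of −1.61, against a median of 0.01 over all genes tested. The median SE was 0.21 for members and 0.14 over all genes tested. Of 330 genes called lower by at least 2-fold, the 60 members were joined by 174 others that reached a mean of 1 CPM and by 96 that did not.

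The number of genes that met the rule depended on the scaling of the libraries. Relative to library totals the typical gene was itself lower in hypoxia: the median ratio to the normoxia mean over the 12671 genes was 0.918, 0.846, 0.929 and 0.840 in hypoxia libraries 1 to 4. The same medians for the members were 0.313, 0.275, 0.299 and 0.238. With TMM scaling (trimmed mean of M values), which moves the median log2 fold change of all genes tested from −0.17 to 0.01, 35 of the 60 still met the rule and no other gene did. Of the 25 that left, 23 passed the bound, at most to a ratio of 0.599, and 2 fell below a mean of 1 CPM. The TMM factors, from 0.895 to 1.08, are too close together to close the 2-fold gap that chose the members, so their groups stay apart under TMM by construction. The smallest reduction of a member was then 2.11-fold. Under each of library totals, TMM, RLE (median of ratios) and upper quartile scaling, 34 members met the rule. Complete separation without a minimum gap, which held for 29.5% of the 12671 genes on library totals, also depended on the scaling. It held for 2291 genes (18.1%) with TMM, 2279 (18.0%) with RLE and 2238 (17.7%) with upper quartile scaling.

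**Figure D3:**
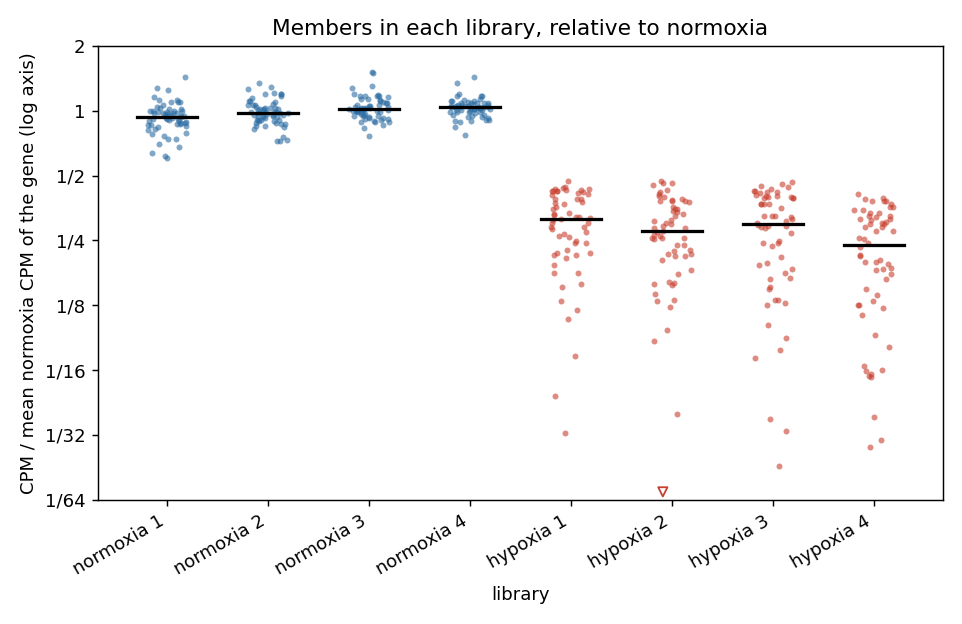
CPM of each member relative to its normoxia mean (log axis) in each library; each point is 1 of the 60 members, black bars are medians, and the open triangle is a count of 0. The medians of hypoxia libraries 1 to 4 are 0.313, 0.275, 0.299 and 0.238, and the points of each hypoxic heart spread over a wider range than those of the normoxic hearts. The division centres the normoxic points near 1, and the members differ in fold. That range therefore does not measure differences between hearts.

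The hypoxic hearts were less uniform than the normoxic ones in these genes. For the members the median SD, taken on log2(CPM + 0.1), was 0.17 among normoxic and 0.35 among hypoxic hearts, against 0.12 and 0.23 over the 12671 genes. The SD was larger in hypoxia in 53 of 60 members (88.3%), against 82.6% of the 12671 genes. In normoxia the highest library was within 1.5-fold of the lowest in 45 members. In hypoxia that held in 20, and in 11 the highest library was more than 3-fold above the lowest. These fold ranges were not counted over the 12671 genes. In hypoxia 17 members had a mean under 1 CPM, where values rest on fewer counts. By the SD, the greater spread in hypoxia was shared with the rest of the genes, and the difference from them was not tested.

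Hypoxia library 4 held the lowest value in 32 of the 60 members, and libraries 1 to 3 in 7, 13 and 8. Over the 12671 genes library 4 was lowest in 35.3%. With TMM scaling library 4 was lowest in 27 members, against 22.1% of the 12671 genes, and the other 3 libraries in 11 each. The highest value was in library 1 in 21 members, library 2 in 16, library 3 in 19 and library 4 in 4. Over the 12671 genes those shares were 37.0%, 12.8%, 38.8% and 11.3%. With TMM scaling the highest value was in libraries 1 to 4 in 14, 26, 11 and 9 members. The shares of the 12671 genes were then 27.7%, 23.9%, 24.7% and 23.7%. The value that the rule bounds thus came from library 1, 2 or 3 in most members, as the highest value did in most of the 12671 genes. Library 4 was the lowest for the largest number of members under both scalings.

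A few members followed a division of the hypoxic hearts into libraries 1 and 2 against 3 and 4. Libraries 1 and 2 were both above 3 and 4 in 20 members (33.3%, against 25.7% of the 12671 genes), and the reverse held in 8 (13.3%, against 25.3%). With TMM scaling the first order held in 19 members (31.7%, against 28.6%), close to the share of all genes. The reverse then held in 10 (16.7%, against 26.6%). In 5 members the mean of libraries 1 and 2 was more than 3 times that of 3 and 4. The widest was a gene of 3346 bp, at 2.59, 4.54, 2.82 and 3.60 CPM in normoxia and 1.07, 0.715, 0.0763 and 0.128 CPM in hypoxia, where the lower pair rests on 2 and 4 counts. A more abundant one, of 1888 bp, stood at 48.9, 53.9, 53.4 and 44.5 CPM in normoxia and 19.5, 6.13, 1.87 and 2.95 CPM in hypoxia, so that its reduction ranged widely from animal to animal. At the other end, a gene of 5026 bp was nearly constant in hypoxia, at 1.31, 1.37, 1.26 and 1.32 CPM against 3.45, 3.62, 4.53 and 4.10 CPM in normoxia. The opposite order was clearest in a gene of 7808 bp, which was highest in hypoxia library 3, at 0.344, 0.124, 1.18 and 0.417 CPM, against 3.29, 2.70, 3.20 and 3.56 CPM in normoxia.

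Gene-model length, which the rule did not use, was spread across the whole range. The members had a median of 2539 bp (quartiles 1606 and 4232 bp), with extremes of 112 and 12776 bp. Over the 12671 genes the median was 2414 bp (quartiles 1566 and 3711 bp). Members shorter than 1000 bp numbered 7 (11.7%), against 10.02% of the 12671 genes, and 11 (18.3%) were longer than 5000 bp, against 11.96%. With the 12671 genes divided into 10 equal groups by length, each group held between 4 and 9 members, with 7 in the shortest and 9 in the longest.

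**Figure D4:**
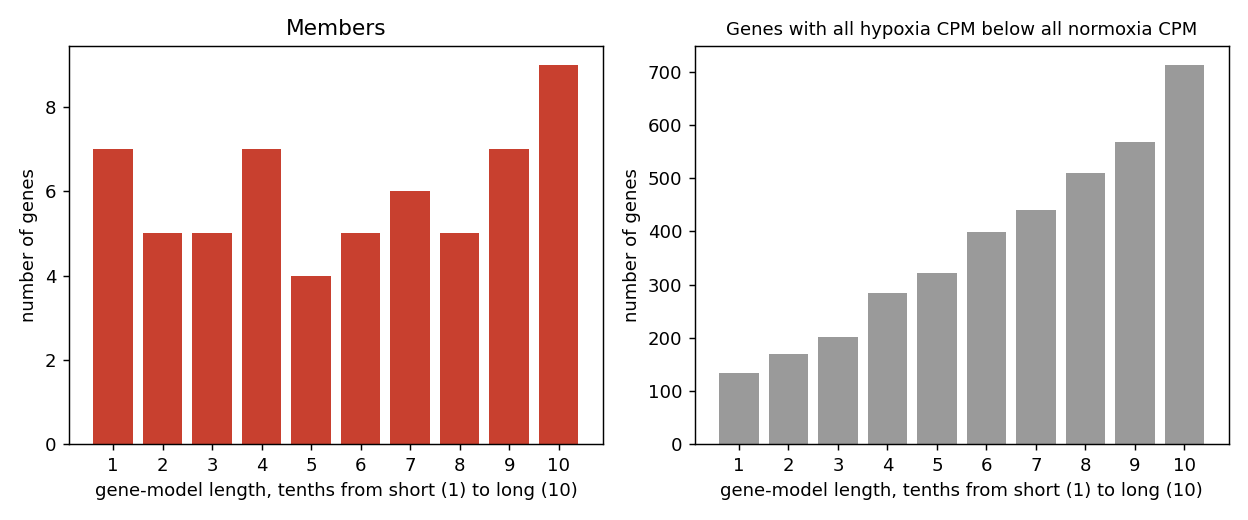
Number of genes in each of 10 equal groups of the 12671 genes by gene-model length, from the shortest (1) to the longest (10): left, the 60 members; right, the 3742 genes with all hypoxia CPM below all normoxia CPM, members included. The members are spread with 4 to 9 per group, while the wider set climbs from 133 to 713.

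On library totals, the wider set of reduced genes was longer. Genes in which all hypoxia values lay below all normoxia values, without the bound of 0.5, rose from 133 in the shortest group to 713 in the longest, and the 3682 of them that are not members had a median length of 3282 bp. The 352 genes at or below a ratio of means of 0.5 that are not members had a median of 2744 bp, and the 43 genes of the mirror rule 1829 bp. These differences in length were not tested. After removal of each library's trend with length, 35 of the 60 members met the rule, as did 3 other genes. That trend was taken on library totals and so also holds each library's overall level. With TMM scaling alone 35 members met the rule too, and the part that length plays was not tested. The wider set also shrank, to 1914 of the 12671 genes (15.1%) with the length trend removed and to 2291 with TMM scaling. How those smaller sets are spread over length was not counted. Lengths divisible by 3, which include gene models without untranslated regions, made up 46.7% of the members and 40.03% of the 12671 genes.

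Within the list, the shortest gene models had the largest median reduction and the highest median level per length, but the lowest median CPM. The 7 members under 1000 bp had a median reduction of 4.70-fold and a median normoxia level of 16.3 FPKM. The 27 between 1000 and 3000 bp were at 3.46-fold and 4.90 FPKM, the 15 between 3000 and 5000 bp at 2.90-fold and 6.50 FPKM, and the 11 above 5000 bp at 3.42-fold and 1.93 FPKM. Over the 60 genes Spearman's rho of length was −0.238 with fold and −0.323 with normoxia FPKM, whose unit contains the length. The shortest member, of 112 bp, stood at 2.33, 1.38, 1.39 and 2.19 CPM in normoxia and at 0.413, 0.155, 0.534 and 0.546 CPM in hypoxia, from 5 to 17 counts, 4.43-fold lower. The longest, of 12776 bp, was at 94.2, 95.3, 92.3 and 105 CPM against 37.9, 39.1, 39.5 and 31.4 CPM, 2.62-fold lower, with hypoxic hearts close together. Another long member, of 11291 bp, was at 41.0, 34.1, 45.9 and 45.03 CPM against 9.11, 11.04, 16.7 and 7.29 CPM, 3.76-fold lower.

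To read the reduction in a heart that had no part in choosing the genes, the rule was applied to 7 libraries and the result was read in the library left out, a check added after the data were seen. Without hypoxia library 1, 99 genes met the rule on the other 7. In library 1 itself, 93 of the 99 (93.9%) lay below every normoxic heart, against 47.8% of all genes that reached a mean of 1 CPM, and 6 did not. Without hypoxia library 2, 89 genes met it. There 86 lay below every normoxic heart (96.6%, against 58.0%). Most genes chosen on the other animals were thus below every normoxic heart in the animal left out too. The normoxic values in this reading are the ones that chose the genes, with a gap of at least 2-fold. Genes taken over all had no such gap. The high shares for each hypoxic heart are therefore partly fixed by the choice and are no independent support.

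Without hypoxia library 3, 96 genes met the rule. In that library 94 lay below every normoxic heart (97.9%, against 46.2%). Without library 4, 70 met the rule, and all 70 lay below every normoxic heart in it (against 58.0%). The genes that were also within the 0.5 bound in the hypoxic heart left out are the 60 members themselves and 1 gene whose mean over all 8 libraries is under 1 CPM, so their number follows from the choice of the members. The chosen genes that missed it, which numbered 38, 28, 35 and 9 for libraries 1 to 4, are the ones that each heart kept off the list. Relative to the other hypoxic hearts, the median of the chosen genes in the library left out was 1.33, 1.22, 1.25 and 0.792 times as high for libraries 1 to 4. The same median over all genes was 1.05, 0.936, 1.06 and 0.925, so the libraries also differed as a whole on this scale, and only in library 2 did the 2 medians lie on opposite sides of 1. As the chosen genes were picked for low values in the other hypoxic hearts, a median above 1 is partly built in by the choice.

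For the normoxic hearts the same reading gave similar shares. Without normoxia libraries 1 to 4, 71, 67, 61 and 61 genes met the rule on the other 7. In the library left out, 70, 66, 61 and 61 of them lay above every hypoxic heart, where 42.9%, 44.2%, 43.0% and 38.0% of all genes did. Here the hypoxic values read against also chose the genes, so these shares are partly fixed too. Of the genes chosen, 58, 57, 57 and 56 are members, which meet the bound in the library left out by construction. On 3 hypoxic hearts the rule chose 70 to 99 genes, and on 3 normoxic hearts 61 to 71. The ranges overlap, since leaving out normoxia library 1 gave 71 genes and leaving out hypoxia library 4 gave 70.

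**Figure D5:**
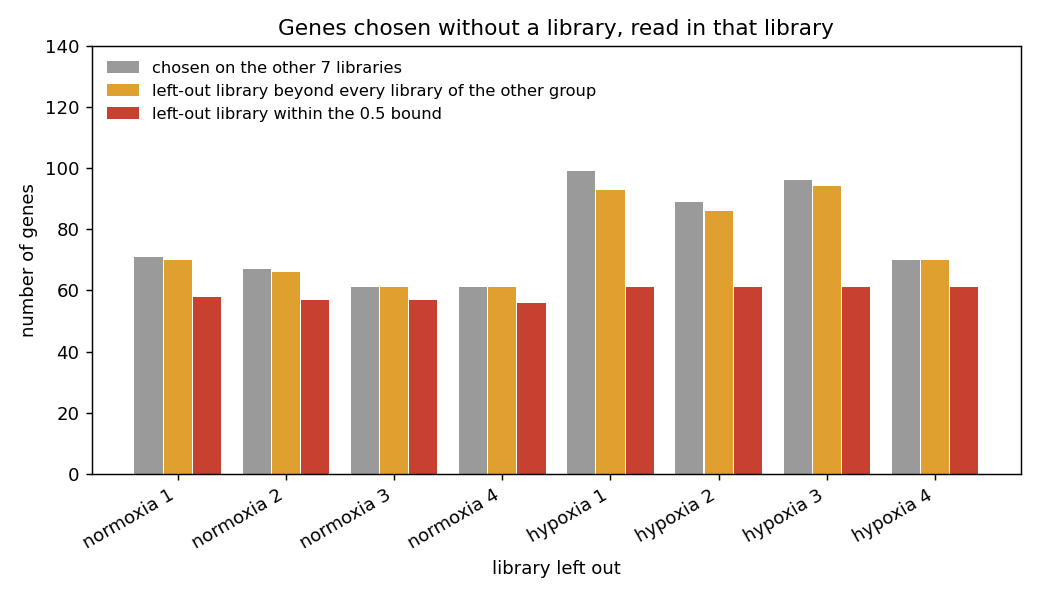
Genes that met the rule on 7 libraries (grey), those among them that lay beyond every library of the other group in the library left out (amber), and those within the 0.5 bound in it (red; members by construction, with 1 further gene for each hypoxic heart), for each library left out. In the unused library nearly all chosen genes lie beyond the other group, below it for hypoxic hearts and above it for normoxic ones. The lowest share is 93 of 99, for hypoxia library 1, and for hypoxia library 4 it is 70 of 70. Values of the other group also chose the genes, which partly fixes these numbers.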

How the data were processed

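RNA of 8 rat hearts was sequenced, and 1 file of counts and 1 of FPKM per library were used. The authors deposited counts per gene, whole and not normalized, and FPKM values, which are CPM per 1000 bp of gene model. Per the submitters' processing notes, the tools were HTSeq 0.6.0, HISAT2 2.1.0, Bowtie2 2.2.3 and bcl2fastq, with rat build rn6. Their roles, the annotation, the strand setting and the handling of reads shared by gene copies were not stated, so overlapping, antisense and near-identical genes may share reads. Per the labels' protocols, RNA was extracted with Trizol and prepared with a NEBNext Ultra kit. Count divided by FPKM and library total gave 1 whole length per gene (relative tolerance 0.001 in 100% of values above 0).

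The rule was applied to CPM from library totals. All genes were fitted with edgeR 4.0.16 in R 4.3.3 (filterByExpr with a minimum count of 10, TMM, quasi-likelihood test, group as the only term, Benjamini-Hochberg adjustment). The fit was also run on simulated counts with known changes and the same spread in both groups. The hearts differed in spread between groups, so that run does not show how the fit behaves on them. The SE came from the test statistic. The members and lists were chosen with earlier results of these data known. The naming rule takes symbols where they exist and otherwise the 2 members with the lowest ratio of means, and other members were singled out after their values were seen. Replicate numbers did not pair the animals. Other tools were DESeq2 1.42.0, limma 3.58.1, numpy 2.4.6, pandas 2.3.3, scipy 1.17.1 and matplotlib 3.10.9 in Python 3.11.15. Thinning used seed 20240501, and the length trend was a lowess curve (span 0.3) of log2 CPM (prior count 2) on log2 length.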

Additional observations from a re-analysis of the deposited data

Results flagged for a closer look

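In 7 of 128 groups of 4 libraries (5.47%), 1 library stood apart from the other 3 by Dixon's ratio, where chance alone gives about 5%. The groups were the CPM of each member in each condition and 4 totals or medians per library. The 5% holds for separate groups that were not chosen by their values. Here the rule bounded the highest hypoxia and lowest normoxia value of each member, and the groups share the same libraries. The flagged share can therefore not be read against it. ENSRNOG00000046601 was at 2.70 CPM in normoxia library 2 against 1.89 to 2.02 in the others. In normoxia, the member of 1386 bp was at 3.16 CPM in library 4 (others 2.05 to 2.13), that of 1985 bp at 1.57 CPM in library 1 (others 1.81 to 1.85), and that of 2046 bp at 7.26 CPM in library 1 (others 12.9 to 13.8). In hypoxia, the member of 1869 bp was at 0.229 CPM in library 3 (others 0.353 to 0.378), that of 2526 bp at 0.267 CPM in library 3 (others 0.546 to 0.560), and that of 823 bp at 1.25 CPM in library 4 (others 2.96 to 3.08).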

How the results depend on the processing

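The number of genes meeting the rule, 60, depended on its settings more than any other result. It was 35 with TMM or RLE scaling, 37 with upper quartile scaling and 38 with the length trend removed. It was 22 with a ratio of 0.4, 148 with 0.6, 38 where a mean of 5 CPM was required and 141 with no filter on the mean, where the median length was 1557 bp. Leaving out 1 library gave 61 to 99 genes, with 99 without hypoxia library 1 and 96 without hypoxia library 3. Leaving out hypoxia libraries 1 and 2 gave 255 and leaving out 3 and 4 gave 175, settings added after the data were seen. The rule asks for fewer libraries there. The other settings of the rule gave 45 to 73 genes. Over all genes, edgeR called 2177 lower and 2516 higher, against 3870 and 1426 with library totals alone, 3704 and 1195 on log2(FPKM + 1), and 3688 and 1195 on log2(FPKM + 0.1), all of which use library totals. Leaving out 1 library gave 3315 to 4758 calls, 1506 to 2310 of them lower and 1809 to 2554 higher. A replicate block in the model gave 3841 calls, 1803 of them lower, and the 60 members were called again. Same-number correlations were −0.0847 to 0.0187, so the numbers gave no pairing. All 60 members were called lower in each fit that tested them; the fits on FPKM, limited to means of at least 1 FPKM, had 45 to test, all called, and not ENSRNOG00000046601. The median log2 fold change of the members was −1.39 on log2(FPKM + 1), where the added 1 outweighs low values, and −1.58 to −1.78 in the other fits. The summed level in hypoxia was 0.372 of that in normoxia with the length trend removed, and 0.286 to 0.352 in the other settings. Members at 1 to 4 CPM in normoxia had down to 0 counts in a hypoxic heart, so their folds are set by few counts. The alternatives for the gene lists were not run, for want of symbols.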
